A study of Mus musculus with 6 samples.

Results

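The genes described here are 36 genes of the cell cycle and of DNA replication, found by symbol among the 24315 rows of a table of FPKM, fragment counts divided by transcript length and library size. They were split by role into 13 S-phase members, which build and unwind DNA or supply its precursors, and 23 mitotic members, which act in G2 and in cell division. All 36 had a row and all 36 passed the floor of a mean of at least 1 FPKM, so none was lost to the filter. Each library held RNA of olfactory mucosa, which comprises the sensory epithelium of the nose and the glands and connective tissue beneath it, taken at postnatal day 11 from C57BL/6 mice of wild-type genotype. Closed nostrils gave 3 libraries and open nostrils 3, with 1 library of each side from each of 3 mice, as a deposited sheet states. Closing a nostril keeps odor-laden air from that side, and the comparison addresses which transcripts depend on activity. No unoperated mouse is analysed here, so a closed side can be set only against the open side of the same animal. The age at closure is not stated in the labels or sheets.

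The olfactory epithelium is among the few neural tissues that make neurons throughout life. Globose basal cells, which lie near its base, divide and give rise to olfactory sensory neurons, and horizontal basal cells form a mostly quiescent reserve. Other cells of the mucosa also divide, among them supporting cells, gland cells, fibroblasts and blood-derived cells, more so in a growing pup. Transcripts of S-phase genes are driven at the G1/S boundary by E2F factors. Those of mitotic genes peak later. Many mitotic promoters hold CCAAT boxes, bound by NF-Y, and a cell cycle genes homology region (CHR), bound by a repressor complex, DREAM. In bulk tissue, fewer dividing cells and less RNA per dividing cell cannot be told apart.

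Sequencing gave from 24958172 to 43584803 reads per library, of which 93.28% to 96.99% were aligned, and the RNA integrity number was 10 throughout. The library of the closed side of mouse 1 was the shallowest, and small RNA rows took 11.3% of its summed FPKM, against 3.47% to 5.27% in the other libraries. S100a5, a gene known to depend on olfactory activity, separated the sides as labelled, with 239, 300.5 and 208 FPKM in the closed libraries of mice 1, 2 and 3 against 1997, 2102 and 1951 FPKM in the open ones. Whether the replicate spread is biological rests on the 3 mice, and FPKM carry no counts from which a counting error could be had.

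No S-phase or mitotic gene passed the test between the closed and the open side. With limma on log2(FPKM + 1) and Benjamini-Hochberg adjustment over the 14788 rows tested, 0 of 13 S-phase and 0 of 23 mitotic members had an adjusted p under 0.05, where 7 rows (0.0473%) had, 0.00676% of rows being higher and 0.0406% lower on the closed side. None was under 0.05 unadjusted either, against 1.45% of all rows, and the lowest unadjusted p of a member was 0.405, for Top2a. With the mouse as a block, 0 of 36 members were called and 0 were under 0.05 unadjusted, where 5 rows (0.0338%) and 2.37% of rows were. In no member were all closed libraries above or all below the open ones, a separation seen upwards in 1.28% and downwards in 2.09% of all rows.

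The differences were small, and their intervals bound what could have been missed. Log2 changes, closed minus open on log2(FPKM + 1), ran from -0.08 (Rrm2) to 0.12 (Mcm7) in the S-phase group, with a median of 0.04. Among the mitotic genes they ran from -0.03 (Cdk1) to 0.20 (Birc5), with a median of 0.06. The median over all rows was -0.01. The 95% intervals of the 36 members reached at most 0.79 upwards, a 1.73-fold higher value for Birc5, and at most -0.54 downwards, a ratio of 0.69 for Cdk1. With the mouse as a block the outermost bounds were 0.46 (1.37-fold) and -0.35 (a ratio of 0.787), for the same genes. These intervals hold for each gene singly and were not widened for the number of genes.

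**Figure D1:**
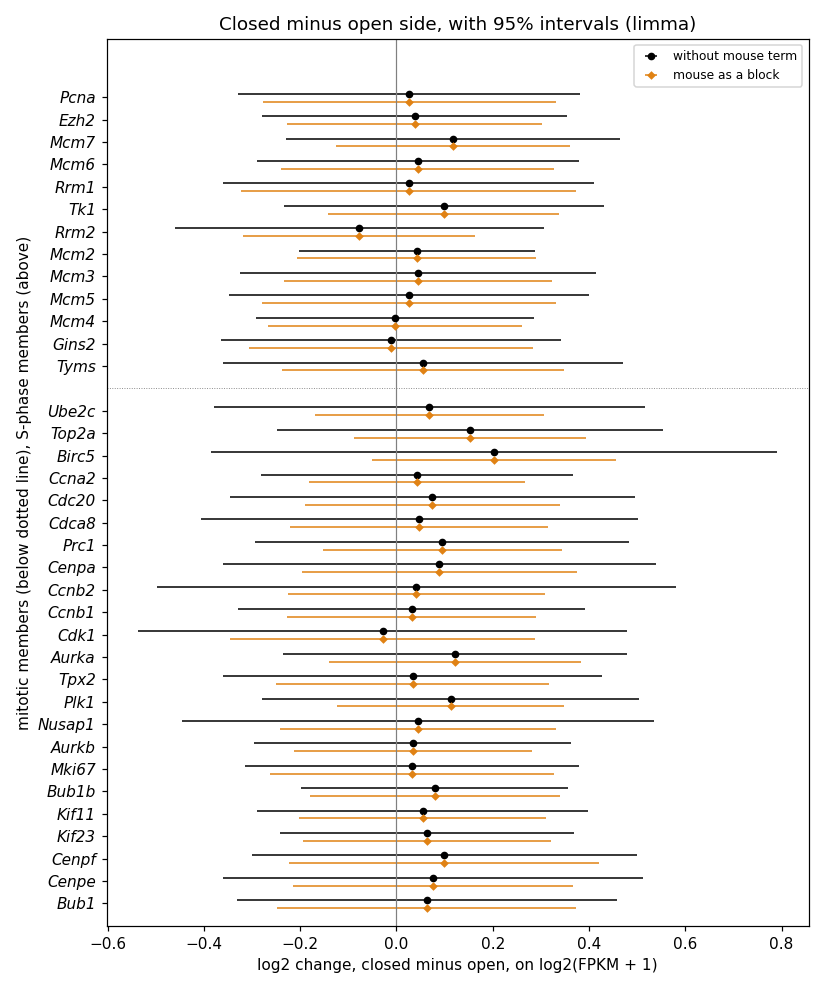
Log2 change of each member (x axis, closed minus open on log2(FPKM + 1)) with its 95% interval from limma, without a mouse term (black circles) and with the mouse as a block (orange diamonds), S-phase genes above and mitotic genes below the dotted line. All intervals include 0, and with the block most were narrower, that of Birc5 by the most.

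Pcna, the sliding clamp that holds DNA polymerase on its template, was the most abundant member. In mice 1, 2 and 3 its closed-side level was 92.1, 126 and 86.4 FPKM and its open-side level 99.0, 102 and 93.9 FPKM. The closed libraries thus held both the highest and the lowest value, and the log2 change was 0.03 (SE 0.15, 95% interval -0.33 to 0.38). Mcm2 to Mcm7 form the ring-shaped helicase that unwinds DNA at the fork. Mcm7 had 30.4, 36.7 and 26.6 FPKM in the closed libraries and 31.0, 30.8 and 24.2 FPKM in the open ones, and Mcm6 had 21.2, 29.8 and 21.9 FPKM in the closed libraries and 24.1, 24.6 and 21.3 FPKM in the open ones. Mcm2 had the smallest SE of the ring, 0.11, with 14.9, 15.5 and 15.5 FPKM on the closed and 14.7, 16.3 and 13.6 FPKM on the open side. Mcm5 showed 11.99, 17.4 and 13.1 FPKM in the closed libraries and 14.5, 15.3 and 11.6 FPKM in the open ones. In each of these helicase genes the sides overlapped, and the log2 changes of Mcm2 to Mcm7 lay between -0.003 (Mcm4) and 0.12 (Mcm7). Gins2, a subunit of the GINS complex that activates the ring, had a log2 change of -0.01 (SE 0.15).

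Enzymes that supply DNA precursors had overlapping sides as well. Rrm2, the cell cycle-regulated subunit of ribonucleotide reductase, measured 14.5, 19.2 and 12.6 FPKM in the closed libraries and 15.5, 18.7 and 14.3 FPKM in the open ones (change -0.08 on the log2 scale, SE 0.17, 95% interval -0.46 to 0.31). Its large subunit Rrm1 averaged 24.1 ± 6.15 FPKM on the closed and 23.2 ± 1.20 FPKM on the open side (SD, n = 3 each). The closed libraries held both its highest value, 31.0 FPKM in mouse 2, and its lowest, 19.2 FPKM in mouse 1. Tyms, thymidylate synthase, was the lowest S-phase member, with 5.65, 7.77 and 4.69 FPKM on the closed and 5.21, 6.71 and 5.17 FPKM on the open side. The table also has a row for a Tyms pseudogene, Tyms-ps, at 0 FPKM in the closed and 0 to 0.0684 FPKM in the open libraries, and how reads were shared between the copies is not stated. Tk1, the salvage enzyme thymidine kinase, had 17.9, 19.5 and 14.8 FPKM in the closed libraries and 18.1, 16.9 and 13.7 FPKM in the open ones. Ezh2, a histone methyltransferase and E2F target placed in this group, had 30.6, 35.9 and 25.1 FPKM in the closed libraries and 30.4, 30.2 and 27.7 FPKM in the open ones. Of these 5 genes, Rrm2 had a log2 change below 0 and the others changes between 0.03 and 0.10.

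Among mitotic genes, Ube2c was the most abundant. It encodes the ubiquitin-conjugating enzyme that works with the anaphase-promoting complex, and in mice 1, 2 and 3 its closed libraries had 45.6, 56.4 and 37.3 FPKM and its open libraries 48.0, 51.0 and 33.9 FPKM (change 0.07 on the log2 scale, SE 0.20). Cdc20, an activator of that complex, averaged 24.6 ± 5.51 FPKM in the closed libraries and 23.2 ± 3.89 FPKM in the open ones (SD, n = 3 each). The kinase that drives entry into mitosis and its cyclins come next. Cdk1 had 14.6, 22.5 and 11.9 FPKM in the closed libraries and 17.1, 18.4 and 13.4 FPKM in the open ones, and was the mitotic member with a log2 change below 0 (-0.03, SE 0.22, 95% interval -0.54 to 0.48). Ccnb1, cyclin B1, measured 16.3, 21.8 and 14.6 FPKM on the closed and 16.0, 19.0 and 16.1 FPKM on the open side. Ccna2, cyclin A2, measured 23.5, 29.2 and 21.3 FPKM on the closed and 23.03, 26.8 and 21.7 FPKM on the open side. In Cdk1, Ccnb1 and Ccna2 mouse 2 was highest on both sides, and the ranges of the sides overlapped. Ccnb2, cyclin B2, had the wider spread of the cyclins, at 20.6 ± 6.81 FPKM in the closed libraries and 19.6 ± 4.05 FPKM in the open ones (SD, n = 3 each).

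Mki67, the proliferation antigen Ki-67, had 10.7, 11.7 and 9.83 FPKM in the closed libraries and 8.70, 12.9 and 10.2 FPKM in the open ones (change 0.03 on the log2 scale, SE 0.15, 95% interval -0.31 to 0.38). Top2a, the topoisomerase that untangles sister DNA, had 27.8, 40.9 and 27.8 FPKM on the closed and 25.2, 33.2 and 27.3 FPKM on the open side. Birc5, survivin, a subunit of the chromosomal passenger complex, had 29.3, 42.1 and 21.1 FPKM on the closed and 27.1, 31.8 and 19.5 FPKM on the open side. For both genes 3 of 3 mice had the higher value on the closed side, yet the ranges of the sides overlapped. Top2a had a log2 change of 0.15 (SE 0.17, limma adjusted p = 1) and Birc5 one of 0.20 (SE 0.26, limma adjusted p = 1). With the mouse as a block the SE of Birc5 fell to 0.10, and its unadjusted limma p, the lowest of the 36 in that fit, was 0.0984. Birc5's partners in the complex, the kinase Aurkb and the scaffold protein Cdca8, had log2 changes of 0.03 and 0.05.

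The spindle and centromere genes also had intervals that include 0. Aurka, the kinase of the spindle poles, measured 14.3, 16.5 and 11.7 FPKM in the closed libraries and 14.5, 13.4 and 10.9 FPKM in the open ones (change 0.12 on the log2 scale, SE 0.16). Its activator Tpx2 had a log2 change of 0.03, and the mitotic kinase Plk1 one of 0.11. Log2 changes of the spindle motors Kif11 and Kif23 were 0.05 and 0.06, and those of the microtubule-binding Prc1 and Nusap1 were 0.10 and 0.05. The checkpoint kinases Bub1 and Bub1b had changes of 0.06 and 0.08. At the centromere, the histone variant Cenpa stood at 0.09, and Cenpe and Cenpf, large proteins of the kinetochore, at 0.08 and 0.10. Bub1, Cenpe and Cenpf were the least expressed members, with 3.22 to 5.54 FPKM over the 6 libraries.

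**Figure D2:**
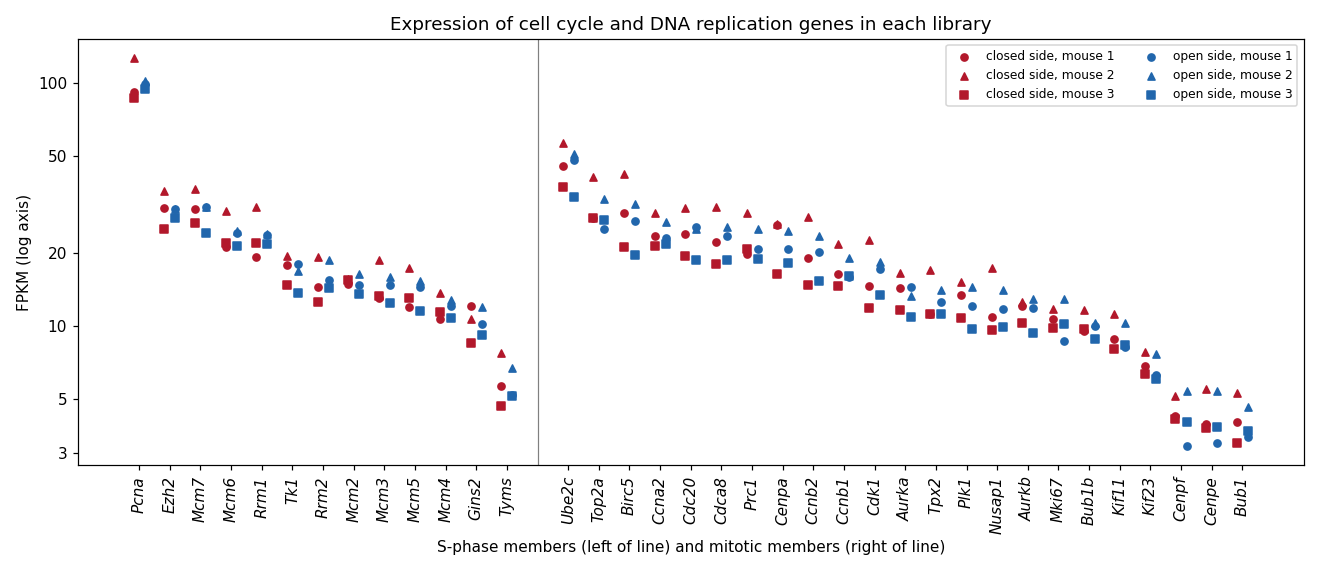
FPKM of each member in each of the 6 libraries (log axis), closed side in red and open side in blue, mice by symbol, genes ordered by mean level within the S-phase group (left) and the mitotic group (right). Pcna stood highest at 86.4 to 126 FPKM, and in most genes the triangles of mouse 2 lay above and the squares of mouse 3 below on both sides.

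Small differences leaned to one side in the counts, and the lean depended on which libraries were kept. The log2 change was above 0 in 10 of 13 S-phase and 22 of 23 mitotic members, where 46% of all rows were above 0. These members share libraries and vary together, so the counts are not those of independent genes. Without the closed library of mouse 2, 2 of 13 S-phase and 3 of 23 mitotic members were above 0, and the medians were -0.11 and -0.07. Without the open library of mouse 3, 2 of 13 and 11 of 23 were above 0, and the medians were -0.02 and -0.01. Without the closed library of mouse 3, or without the open library of mouse 2, 13 of 13 and 23 of 23 were above 0, and the mitotic median was 0.16. Of all rows, 51% were above 0 without the closed library of mouse 2 and 44.9% without the open one of mouse 3. Without the closed library of mouse 3 it was 48.2%, and without the open one of mouse 2 it was 52.7%. A single library left out leaves the mice unequal between the sides, and this fit had no mouse term. With both libraries of mouse 2 left out, 4 of 13 and 16 of 23 were above 0 (medians -0.05 and 0.04). Without both of mouse 1, 11 of 13 and 20 of 23 were above 0 (medians 0.09 and 0.10). Without both of mouse 3, 9 of 13 and 22 of 23 were (medians 0.04 and 0.09). Of all rows, 39.1%, 55.9% and 48.5% were above 0 without mouse 1, 2 and 3. Within mice, 4 of 13 S-phase members were higher on the closed side in mouse 1, 11 of 13 in mouse 2 and 8 of 13 in mouse 3, while 59.2%, 39% and 47.6% of all rows were. Mitotic members were higher on the closed side in 13 of 23 cases in mouse 1, 20 of 23 in mouse 2 and 11 of 23 in mouse 3. Top2a, Birc5, Plk1 and Kif23 were higher in 3 of 3 mice, and 0 of 36 members were lower in 3 of 3. Over all rows these shares were 7.41% and 9.18%.

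Summed over the group, S-phase members gave 317 ± 56.6 FPKM on the closed and 306 ± 24.0 FPKM on the open side (SD, n = 3 each), a ratio of 1.04. Mitotic members summed to 398 ± 87.8 FPKM on the closed and 373 ± 55.9 FPKM on the open side, a ratio of 1.07. Both differences were smaller than the spread among libraries of a side, a spread that includes the differences between mice. By mouse, the closed over open ratio of the S-phase sum was 0.939 in mouse 1, 1.17 in mouse 2 and 0.987 in mouse 3. For the mitotic sum the ratios were 1.01, 1.15 and 1.02. Mouse 2 was thus the animal in which the closed sum stood above the open one by more than a few percent.

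**Figure D3:**
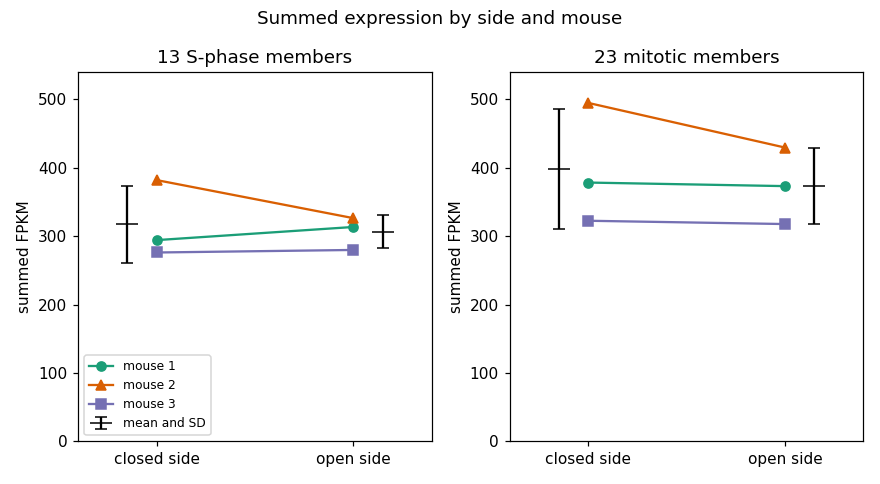
Summed FPKM of the 13 S-phase members (left panel) and the 23 mitotic members (right panel) on the closed and the open side, a line joining the libraries of each mouse, with the mean and SD of each side in black. Mouse 2 was highest and mouse 3 lowest on both sides, and the sides overlapped.

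The members' values ordered the mice alike on both sides. The mitotic sum was 495 FPKM on the closed and 429 FPKM on the open side of mouse 2, 378 and 373 FPKM in mouse 1, and 322 and 318 FPKM in mouse 3. The S-phase sum was 382 and 326 FPKM in mouse 2, 294 and 313 FPKM in mouse 1, and 276 and 280 FPKM in mouse 3, closed side first. Both groups ranked mouse 2 above mouse 1 above mouse 3 on either side. In 36 of 36 members both libraries of mouse 2 stood above both libraries of mouse 3, which held for 24.6% of all rows. In 29 of 36 both libraries of mouse 2 stood above the other 4, against 8.37% of all rows. The closed library of mouse 2 was the highest of the 6 in 31 of 36 members, against 15% of all rows.

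The comparison between mice was made after these values had been seen, and mice 2 and 3 were those with the highest and lowest sums. Differences and low unadjusted p values were thus to be had from the choice itself. The members also vary together, so their counts are not those of independent genes. In the limma fit with side and mouse as terms, the log2 difference, mouse 2 minus mouse 3, had a median of 0.42 in mitotic members (range 0.22 to 0.82) and of 0.33 in S-phase members (range 0.13 to 0.47), against -0.01 over all rows. The difference was above 0 in 36 of 36 members and in 48.4% of all rows. It was largest for Birc5 (0.82, SE 0.13), Ccnb2 (0.73, SE 0.13), Cdk1 (0.65, SE 0.16) and Nusap1 (0.62, SE 0.14). In S-phase members the largest were those of Tyms (0.47, SE 0.15) and Rrm2 (0.46, SE 0.12). At an unadjusted p under 0.05, limma had 19 of 23 mitotic and 6 of 13 S-phase members higher in mouse 2 than in mouse 3, against 4.95% of all rows. Adjusted over all rows, 0 of 36 passed (limma adjusted p from 0.501 to 0.721), where 0.027% of rows did. The F test over the 3 mice called 0 of 36 as well, against 0.0811% of rows, and 17 of 36 were under 0.05 unadjusted, against 8.65%. Each mouse gave 2 libraries, and the F test called 12 rows in all.

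**Figure D4:**
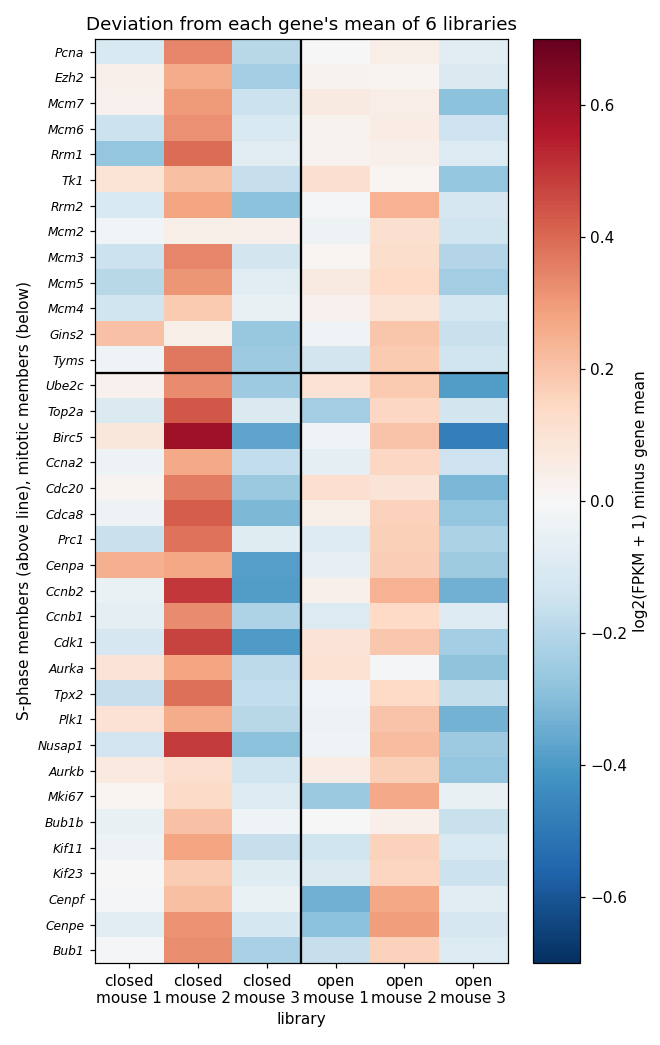
Deviation of each member from its own mean over the 6 libraries, on log2(FPKM + 1), by library (columns, closed then open, mice 1 to 3) and gene (rows, S-phase above and mitotic below the line). The columns of mouse 2 are mostly above the mean and those of mouse 3 mostly below it, on both sides.

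Marker levels of other cells also varied between the mice. All 5 markers of myeloid precursors, dividing cells of the bone marrow, were highest in the closed library of mouse 2, against 15% of rows. Of the 5, 2 were under the floor and were not tested. The 5 summed to 24.1 FPKM in that library and 11.4 FPKM on the open side of mouse 2. In mouse 1 they summed to 12.8 and 11.3 FPKM, and in mouse 3 to 7.19 and 6.96 FPKM, closed side first. Elane, neutrophil elastase, was at 4.51 FPKM in the closed library of mouse 2 and between 0.725 and 2.05 FPKM in the others. Markers of globose basal cells summed to 371 and 340 FPKM in mouse 2, 344 and 348 FPKM in mouse 1, and 326 and 278 FPKM in mouse 3, so mouse 3 was lowest on both sides and mouse 1 highest on the open side. Markers of horizontal basal cells summed to 83.7 and 84.8 FPKM in mouse 2, 51.8 and 70.1 FPKM in mouse 1, and 65.1 and 67.5 FPKM in mouse 3, highest in mouse 2 on both sides. Neutrophil markers had a median log2 difference, mouse 2 minus mouse 3, of 0.93, with 6 of 6 above 0 (48.4% of all rows). Of these, 4 were under 0.05 unadjusted by limma, against 4.95% of all rows. Macrophage and erythroid markers had medians of 0.28 and 0.42. For mouse 2 minus mouse 1 the neutrophil, macrophage and erythroid medians were 0.28, 0.21 and -0.25, with 5 of 6, 4 of 6 and 0 of 5 above 0. The neutrophil sum was highest in the closed library of mouse 1, at 997 FPKM, against 892 and 935 FPKM in mouse 2. Markers of mature sensory neurons ran the other way between mice 2 and 3, with a median log2 difference, mouse 2 minus mouse 3, of -0.51. All 6 were below 0 and 3 were under 0.05 unadjusted by limma, where 742 of 14788 rows were lower in mouse 2 at that threshold. The summed mature neuron markers were 2807 FPKM on the closed and 1930 FPKM on the open side of mouse 2, against 3255 and 2381 FPKM in mouse 3. In mouse 1 they were 2648 and 2958 FPKM, so there the open side was the higher. Xist, which marks a second X chromosome, was at 0.0634 and 0.0857 FPKM in mouse 1 and at 28.8 FPKM or more in mice 2 and 3, so mice 2 and 3 were alike in this and mouse 1 was not. The part of these cells in the cell cycle values was not tested.

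The balance of the groups varied by mouse. The S-phase sum over the mitotic sum in mice 1, 2 and 3 was 0.778, 0.772 and 0.856 for closed and 0.840, 0.760 and 0.881 for open libraries. Mouse 3, with the lowest sums, had the highest ratio on both sides, and in each mouse but mouse 2 the ratio was lower on the closed side. The ranges of the sides overlapped.

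The promoters of the groups differ in their motifs. The members were split by role, and genes of these roles are known for such motifs, so the difference is not independent of the split. The promoters are given for their sequence, and any link to the variation between libraries was not tested. RefSeq promoters on GRCm38.p6, each of 300 bases from 250 before to 50 after the start, were held for 31 of the 36 genes, namely 11 S-phase and 20 mitotic ones. Each was searched on both strands for the CHR core TTTGAA, for CCAAT, and for an E2F-type core written as TTCCCGC, else as TTCGCGC, else as TTGCCGC, else as TTGGCGC. A gene was counted once, if any of its promoters held the motif. The CHR core was found for 15 of 20 mitotic genes (75%) and 1 of 11 S-phase genes (9.09%), against 20.2% of the 27025 genes in the promoter table. An E2F-type core was found for 3 of 20 mitotic (15%) and 7 of 11 S-phase genes (63.6%), against 10.9% of all genes. A CCAAT box was common to both, found for 18 of 20 mitotic (90%) and 9 of 11 S-phase genes (81.8%), against 41.1%. These are descriptions of letters, without a test, and they do not show that a factor binds.

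The 150 bases before the start of 6 members show the layout, 5′ to 3′ on the strand of the gene, with every match to a searched motif in capitals on whichever strand it was read. The first 4 are mitotic genes, with CCAAT boxes (ATTGG on the other strand) and a CHR core (TTTGAA or TTCAAA) within 29 bases of the start. The last 2 are S-phase genes with an E2F-type core. In Mcm6 the forward and the reverse core overlap, at both places, and are joined in 1 run of capitals.
Cdk1, GRCm38.p6 chr10:69352913-69353062, minus strand: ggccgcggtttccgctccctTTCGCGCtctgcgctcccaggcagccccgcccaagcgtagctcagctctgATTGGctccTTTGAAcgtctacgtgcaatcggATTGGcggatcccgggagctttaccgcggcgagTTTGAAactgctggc
Ube2c, GRCm38.p6 chr2:164769779-164769928, plus strand: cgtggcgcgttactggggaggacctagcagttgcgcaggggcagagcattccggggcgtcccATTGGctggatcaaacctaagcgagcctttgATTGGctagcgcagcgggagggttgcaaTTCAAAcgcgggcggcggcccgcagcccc
Cdc20, GRCm38.p6 chr4:118437344-118437493, minus strand: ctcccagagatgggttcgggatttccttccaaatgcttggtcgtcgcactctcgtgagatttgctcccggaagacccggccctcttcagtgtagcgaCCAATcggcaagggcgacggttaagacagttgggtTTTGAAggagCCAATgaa
Top2a, GRCm38.p6 chr11:99024190-99024339, minus strand: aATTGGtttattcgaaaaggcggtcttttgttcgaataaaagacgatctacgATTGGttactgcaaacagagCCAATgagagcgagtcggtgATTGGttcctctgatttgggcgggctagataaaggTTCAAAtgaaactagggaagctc
Mcm6, GRCm38.p6 chr1:128359706-128359855, minus strand: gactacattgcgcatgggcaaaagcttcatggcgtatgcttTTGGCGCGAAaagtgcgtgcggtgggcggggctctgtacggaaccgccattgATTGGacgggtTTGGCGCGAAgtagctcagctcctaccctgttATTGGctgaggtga
Rrm1, GRCm38.p6 chr7:102441545-102441694, plus strand: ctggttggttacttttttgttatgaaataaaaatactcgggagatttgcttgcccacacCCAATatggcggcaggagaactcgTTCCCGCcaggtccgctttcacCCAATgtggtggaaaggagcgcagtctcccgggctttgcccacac
The CHR core nearest the start began 15 bases before it in Cdk1, 29 in Ube2c, 18 in Cdc20 and 23 in Top2a. Cdk1 has an E2F-type core as well, 130 bases before the start, and the E2F-type core of Rrm1 began 67 bases before it. These promoters are on another genome build than the one named for the FPKM, mm9, and are shown for their sequence alone.

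Further genes of the cycle, outside the 36, gave no call either. Of 41 other S-phase genes tested 0 were called by limma and 0 were under 0.05 unadjusted. Their median log2 change was 0.05, with 32 above 0, where 46% of all rows were above 0. Those with the lowest p were Chaf1a (0.15), a chromatin assembly subunit, Pold1 (0.14), the catalytic subunit of DNA polymerase delta, Dnmt1 (0.12), the maintenance methyltransferase, and Gins4 (0.10), a partner of Gins2. Of 10 genes of origin licensing 0 were called and 0 were under 0.05 unadjusted, with a median of 0.02, and Orc2 and Orc5, subunits of the origin recognition complex, stood at 0.06 and -0.05. Of 49 other mitotic genes 0 were called and 0 were under 0.05 unadjusted, with a median of 0.03 and 40 above 0, against the same 46% of all rows. Ncapd2, a condensin subunit, had 25.2, 24.5 and 24.1 FPKM in closed libraries, against 19.3, 22.5 and 23.2 FPKM in the open ones. It was the 1 gene of these 49 whose sides did not overlap (change 0.18 on the log2 scale, SE 0.11, limma adjusted p = 1). Over all rows 1.28% were separated upwards. Espl1, Hjurp and Cdca2 had changes of 0.16, 0.17 and 0.17.

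Genes that govern entry into and exit from the cycle gave no call. Of 19 tested regulators of G1, 0 were called and 0 were under 0.05 unadjusted by limma, with a median log2 change of -0.03. E2f1, an activating E2F factor, had 10.3, 13.6 and 9.43 FPKM in the closed libraries and 9.96, 10.7 and 8.38 FPKM in the open ones, so the closed value was above the open one in 3 of 3 mice. Its log2 change was 0.17 (SE 0.16). E2f7, a repressive E2F, stood at 0.13, the D-type cyclin Ccnd3 at -0.16 and the E-type cyclin Ccne2 at -0.11. Among 10 tested inhibitors of cell cycle progression, 0 were called and 0 were under 0.05 unadjusted. Btg2, an antiproliferative gene, measured 21.3, 23.3 and 22.2 FPKM in the closed libraries and 20.9, 38.2 and 29.1 FPKM in the open ones. Its closed values lay close together and the open ones spread (change -0.35 on the log2 scale, SE 0.19). Pkmyt1, a kinase that restrains Cdk1, stood at 0.15, Btg1 at -0.10 and the inhibitor Cdkn1b (p27) at 0.07.

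Markers of the cells that could carry these transcripts were set beside them. Of 8 globose basal cell markers 0 were called, the median log2 change was 0.09 and 7 were above 0, against 46% of all rows. Neurog1 and Neurod1, transcription factors of neuronal precursors, stood at 0.16 and 0.11 and Hes6 at 0.19, none past the test. All 5 horizontal basal cell markers were below 0, with a median of -0.27. Of these, 1 was under 0.05 unadjusted by limma, against 1.45% of all rows. Icam1 was the one of these whose sides did not overlap, with 2.59, 2.93 and 2.78 FPKM in the closed libraries and 3.69, 3.42 and 3.55 FPKM in the open ones (change -0.27 on the log2 scale, SE 0.12, limma adjusted p = 1). Over all rows 2.09% were separated downwards. The basal keratins Krt14 and Krt15 stood at -0.27 and -0.41 and the factor Trp63 at -0.22.

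Of the remaining lists of cell types, none had a member past the limma test over all rows. Immature neuron markers had a median log2 change of 0.06, with Dcx at 0.21, Tubb3 and Gng8 at 0.09 and Gap43 at 0.06. Mature neuron markers had a median of 0.29, with Ano2 at 0.48, Cnga4 at 0.40, Cnga2 at 0.32 and Gnal at 0.26, and Ano2 was under 0.05 unadjusted. Sustentacular markers had a median of -0.12, with Cyp2g1 at -0.27, Cyp2a5 at -0.25, Sec14l3 at -0.12 and Ermn at -0.09. Glial markers had a median of -0.34 with 4 of 5 below 0 and 1 above (Fabp7 -0.52, S100b -0.37, Sox10 -0.08), endothelial ones -0.19 (Kdr -0.21, Emcn -0.19, Pecam1 -0.17, Cdh5 -0.19), fibroblast ones -0.08 (Dcn -0.18, Col3a1 -0.16, Pdgfra -0.08, Col1a1 0.13) and cartilage ones 0.002 (Sox9 -0.16, Col2a1 0.09, Col9a1 -0.05, Acan 0.05). Among blood-derived cells the medians were 0.34 for myeloid precursors (Elane 0.46, Mpo 0.34, Prtn3 0.28), 0.49 for neutrophils (Mmp8 0.54, Ngp 0.54, Camp 0.60, Ltf -0.999), -0.16 for macrophages (Csf1r -0.23, Cd68 -0.21, Lyz2 0.22, Adgre1 -0.17), 0.03 for erythroid cells (Slc4a1 0.37, Alas2 -0.07, Hbb-b1 0.03) and -0.05 for B lymphocytes (Cd79a -0.06, Cd79b -0.04). Mmp8 and Ltf were under 0.05 unadjusted by limma, as Ano2 was, where 1.45% of all rows were. The sides did not overlap for Csf1r and Cd68, which were lower on the closed side, a separation seen in 2.09% of all rows. The erythroid sum was 588 FPKM in the closed library of mouse 1 and between 191 and 349 FPKM in the others.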

How the data were processed

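Total RNA of the mucosa was isolated (RNeasy micro, Qiagen) and made into TruSeq libraries, per the labels' protocols. The values are FPKM as deposited by the authors. The submitters' processing notes name Cufflinks and the mm9 build. No aligner, annotation or strand setting is named there. A sheet deposited by the authors gives read counts per library, the aligned fraction (a percent in the text), an integrity score of the RNA and the 28S over 18S ratio.

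A floor of a mean of 1 FPKM kept 14788 rows, which were compared on log2(FPKM + 1) with limma 3.58.1 in R 4.3.3 (variance trend, Benjamini-Hochberg at 0.05, 95% moderated intervals). A log2 change on this scale understates that of low genes. On simulated data the fit was checked for returning the changes put in. Those data had independent noise and no mouse effect, so they do not bear on genes that vary together. The main fit had no mouse term, so its spread includes the differences between mice. SE and intervals are from that fit unless another is named. A deposited sheet states that same-numbered libraries come from 1 mouse, and their deviations from the side means correlated at 0.15, 0.08 and 0.21 across genes in mice 1, 2 and 3. Members and lists were chosen with earlier results of these data known. All members were accounted for, and from every other list up to 4 genes of lowest p were named. A few genes of these lists are not reported here by name. Other settings covered the pseudocount, the floor, scaling, the variance model, the block and leaving out libraries. 27 rows whose symbol had become a date were not named. Promoter motifs were matched exactly.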

Additional observations from a re-analysis of the deposited data

How the results depend on the processing

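No member passed the test under any of the other settings tried, nor without both libraries of a mouse, a choice made after seeing the data (smallest limma adjusted p 0.999). The replicate block changed no call of a member, and with it 5 rows of the whole table were called, against 7 without it. The rows called numbered 4 with no floor on FPKM, 4 to 12 with a library left out, and 4, 5 and 14 without mouse 1, 2 or 3. With a library left out the median log2 change ran from -0.070 to 0.16 in mitotic and from -0.11 to 0.12 in S-phase members. Such a fit compares sides with unequal mice and has no mouse term, and the cause was not tested. With both libraries of mouse 1, 2 or 3 left out the median was 0.099, 0.035 and 0.088 in mitotic members. In S-phase members it was 0.092, -0.045 and 0.037. Quantile normalization, median-ratio scaling and leaving out small RNA rows gave log2 changes above 0 for Mcm4 (0.0095, 0.0087 and 0.021) and for Gins2 (0.0012, 0.00032 and 0.013). The direction of 35 of 36 members, all but Aurka, changed at least once with a library or a mouse left out. With a library left out the log2 changes ran over these ranges: Pcna -0.14 to 0.13, Mcm2 -0.017 to 0.11, Mcm3 -0.12 to 0.13, Mcm4 -0.096 to 0.066, Mcm5 -0.12 to 0.13, Mcm6 -0.11 to 0.13, Mcm7 -0.00093 to 0.22, Rrm1 -0.16 to 0.17, Rrm2 -0.24 to 0.047, Tyms -0.11 to 0.20, Tk1 -0.013 to 0.20, Gins2 -0.12 to 0.12, Ezh2 -0.082 to 0.17, Mki67 -0.088 to 0.17, Top2a -0.027 to 0.26, Cdk1 -0.27 to 0.16, Ccnb1 -0.13 to 0.15, Ccnb2 -0.20 to 0.25, Ccna2 -0.080 to 0.14, Birc5 -0.043 to 0.44, Aurkb -0.092 to 0.13, Bub1 -0.084 to 0.19, Bub1b -0.0026 to 0.13, Cdc20 -0.085 to 0.22, Plk1 -0.024 to 0.24, Kif11 -0.070 to 0.15, Kif23 -0.0092 to 0.16, Cenpa -0.023 to 0.30, Cenpe -0.063 to 0.24, Cenpf -0.045 to 0.26, Nusap1 -0.19 to 0.20, Tpx2 -0.15 to 0.13, Prc1 -0.072 to 0.20, Cdca8 -0.15 to 0.22, Ube2c -0.11 to 0.21. Without both libraries of mouse 1 these values were past 0 on the other side: Mcm4 0.080, Mki67 -0.086, Cdk1 0.063, Cenpa -0.021, Cenpf -0.014. Without both libraries of mouse 2 these values were past 0 on the other side: Pcna -0.11, Mcm3 -0.042, Mcm5 -0.045, Mcm6 -0.067, Rrm1 -0.14, Tyms -0.0095, Gins2 0.060, Ezh2 -0.063, Ccnb1 -0.048, Ccnb2 -0.065, Cdc20 -0.020, Nusap1 -0.069, Tpx2 -0.072, Cdca8 -0.062. Without both libraries of mouse 3 these values were past 0 on the other side: Mcm2 -0.025, Mcm5 -0.043, Gins2 0.037, Cdk1 0.035, Aurkb -0.015. With 3 libraries a side, the intervals set what these data can show, and FPKM give no depth for a single gene.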
